A study of Mus musculus with 20 samples.

Results

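B lineage cells made up 653 of the 21016 cells profiled by single-cell RNA-seq from mouse spinal cord. They are the cells that the authors' clustering put in cluster 7, taken from all 6 libraries, and no gene level was used here to choose them. The cords came from female C57BL/6J mice, 8 to 10 weeks old by the labels. Mice had either a laminectomy at the ninth thoracic vertebra (sham) or a moderate contusion there, and the cords were taken at 7 or 28 days post-injury (dpi). Each time was studied in mice on vehicle chow and in mice on chow with PLX5622 at 1200 ppm by the labels, begun 2 weeks before surgery and kept up to the end. PLX5622 blocks the CSF1 receptor, on which microglia depend, so that the PLX5622 libraries come from cords depleted of microglia; monocytes and macrophages can depend on the same receptor.

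Each library was made from 1 cm of cord with its meninges, pooled from several mice that were not perfused, so blood and meningeal cells are part of every library. B lineage cells numbered 23 (sham), 190 (7 dpi) and 329 (28 dpi) in the vehicle libraries. They numbered 18, 22 and 71 in the PLX5622 libraries, in the same order. The labels of the sham libraries name both times and no single day, so 1 sham library per diet serves as reference for both. With 1 library per condition no test between conditions was possible. Intervals are 95% intervals of the counting error and leave out differences between pools of mice, and libraries are called higher or lower as libraries only.

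B cells arise in bone marrow, where the RAG recombinase joins antibody gene segments and a surrogate light chain is used before the mature one. Cells that carry a finished antigen receptor, a membrane antibody held by CD79A and CD79B, leave as immature B cells and mature into follicular or marginal zone cells under the cytokine BAFF. Mature B cells present antigen on MHC class II and may end as plasma cells, which secrete antibody joined by the J chain. In the central nervous system B cells sit mainly in the meninges and in blood, and they gather in the cord after contusion.

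The cells carried the genes that their label calls for. *Cd79a*, which encodes a signalling chain of the B cell receptor, was detected in 90.5% to 100% of the cells of each library, and in 0% to 4.76% of the cells of the T cell cluster, the nearest lymphocyte cluster. *Cd79b*, its partner chain, was detected in 88.4% to 100%, and in 0.86% to 19.0% of the T cell cluster. *Ms4a1*, which encodes the surface protein CD20, was detected in 63.2% to 90.9%, against at most 1.31%. *Ly6d*, a surface protein of lymphoid progenitors and B cells, was detected in 85.1% to 95.7%, against at most 4.76%. Every one of the 653 cells held at least 1 transcript of these 4 genes, with a median per cell between 10 and 41 across the libraries. *Igj* (*Jchain*), a plasma cell gene among the markers of the label, was absent from 4 of the 6 libraries, held 2 transcripts in 2 cells at 7 dpi vehicle, and held 915 in 3 cells at 28 dpi vehicle. Genes of the antibody chains themselves were not analysed here.

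Depth differed between the libraries. The median number of transcripts (unique molecular identifiers, UMIs) per B lineage cell was 2850 in sham, 2209 at 7 dpi and 932 at 28 dpi under vehicle. Under PLX5622 it was 3539, 2937.5 and 1569. The summed depth ran from 64355 UMIs in sham PLX5622 to 661686 at 7 dpi vehicle. None of the 653 cell barcodes was shared by libraries, although 44 barcodes recurred among all cells.

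Transcripts of myeloid cells moved with diet and injury in these cells. A list of 12 genes that mark microglia and macrophages (*Apoe*, *C1qa* and *Tyrobp* among them) took 8.83% of all UMIs of the B lineage cells at 7 dpi vehicle and 8.68% at 28 dpi vehicle. It took 0.711% in sham vehicle, 0.146% in sham PLX5622, 2.51% at 7 dpi PLX5622 and 0.466% at 28 dpi PLX5622. Most of this lay in a distinct group of cells: 56 of 190 cells at 7 dpi vehicle (29.5%) and 95 of 329 at 28 dpi vehicle (28.9%) had at least 5% of their UMIs from the list, against 1, 0, 2 and 1 cells in sham vehicle, sham PLX5622, 7 dpi PLX5622 and 28 dpi PLX5622. The T cell cluster had such cells at a like rate, 25.5% at 7 dpi vehicle and 22.1% at 28 dpi vehicle.

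**Figure D1:**
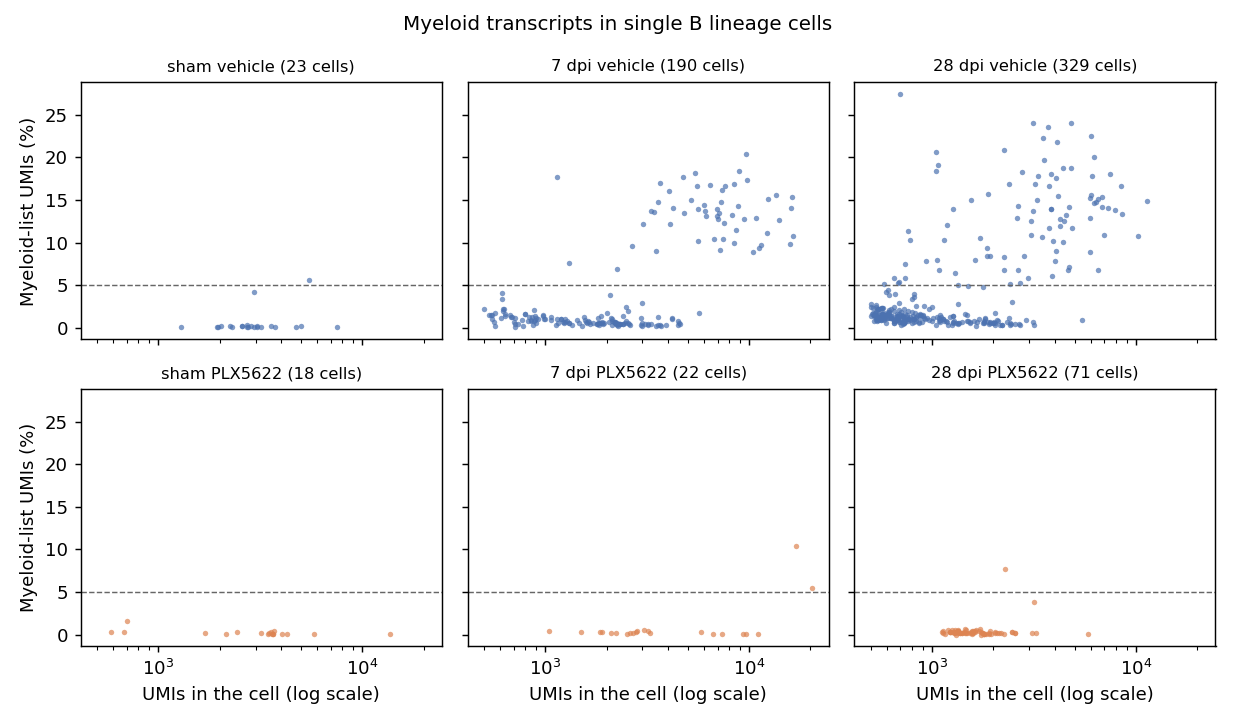
Percent of a cell's UMIs from the 12 myeloid genes (vertical axis) against the UMIs of the cell (horizontal axis, log scale), 1 point per B lineage cell and 1 panel per library, with a dashed line at 5%. The 56 and 95 cells above the line at 7 and 28 dpi vehicle have medians of 7075.5 and 3484 UMIs, against 1612 and 741.5 for the cells below it.

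The cells above that line held as much B cell RNA as the others. At 7 dpi vehicle they had a mean of 12.3 UMIs of *Cd79a*, *Cd79b*, *Ms4a1* and *Ly6d* per cell, against 13.1 in the cells below it. At 28 dpi vehicle the means were 10.9 and 10.7. A doublet caller, whose number of calls is set by the cells loaded, marked 14 of the 190 and 53 of the 329 cells, and 14 and 50 of these were above the line. The cells under 5% are called myeloid-poor below; they numbered 22, 134 and 234 under vehicle and 18, 20 and 70 under PLX5622 (sham, 7 dpi, 28 dpi). Their residual myeloid share still ranged from 0.146% in sham PLX5622 to 1.15% at 28 dpi vehicle. Counts of genes that differ are given for all cells and for the myeloid-poor ones, and levels of single genes are those of the myeloid-poor cells where so said.

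The share of B lineage cells was higher at 28 dpi than in sham under both diets. Of all vehicle cells they were 1.28% (0.814 to 1.92) after sham surgery, 2.55% (2.21 to 2.94) at 7 dpi and 3.34% (3.00 to 3.72) at 28 dpi. Of all PLX5622 cells they were, in that order, 3.66% (2.18 to 5.72), 4.37% (2.76 to 6.53) and 7.55% (5.95 to 9.43). The intervals of sham and 28 dpi do not overlap in either diet. Among cells with at least 500 genes the vehicle shares were 1.57% (0.998 to 2.35) in sham and 2.19% (1.89 to 2.52) at 28 dpi, which overlap. With all cells, the intervals of sham and 7 dpi overlap under PLX5622. PLX5622 removes the microglia from the denominator. Among cells outside the microglia and macrophage clusters, the share was 2.46%, 8.40% and 12.9% under vehicle and 3.96%, 6.41% and 10.9% under PLX5622, so that the order of the diets was then reversed at 7 and 28 dpi, with overlapping intervals. Counting only B lineage cells with fewer than 3 UMIs of the myeloid list turned the vehicle order: there were 6 in the sham library, 3 at 7 dpi and 1 at 28 dpi, or 0.334%, 0.0403% and 0.0102% of all cells. The T cell cluster held 67, 153 and 349 cells under vehicle and 21, 23 and 151 under PLX5622.

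**Figure D2:**
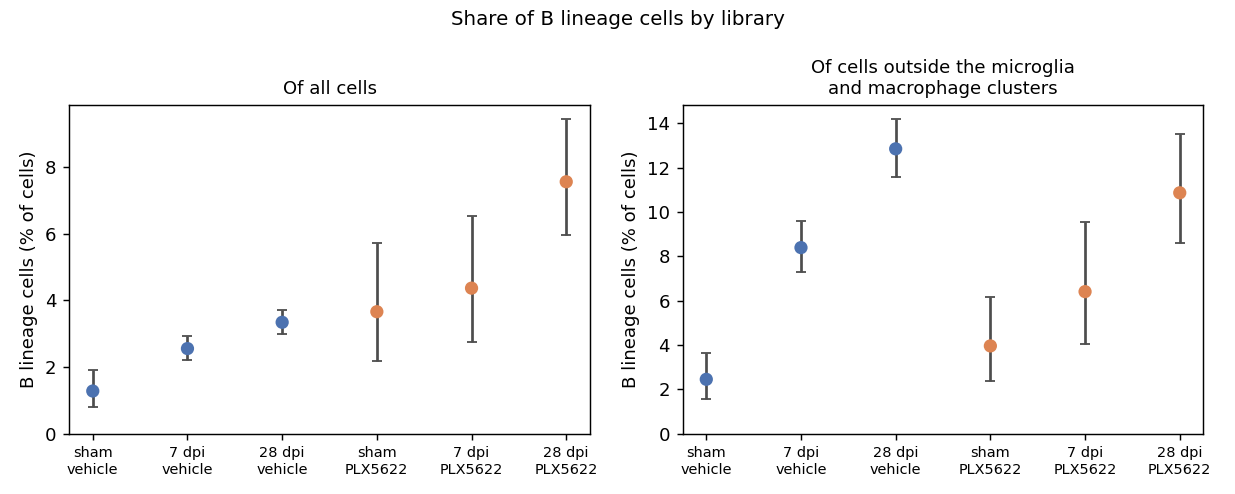
Share of B lineage cells in each library, as percent of all cells (left) and as percent of cells outside the microglia and macrophage clusters (right), with vehicle in blue, PLX5622 in orange and bars for exact 95% binomial intervals. At 28 dpi the share was 3.34% under vehicle and 7.55% under PLX5622 of all cells, and 12.9% and 10.9% of the cells outside those clusters.

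Most of the cells had the transcripts of mature B cells. A cell was placed at the mature stage if it held at least 2 UMIs of *Ms4a1*, *Fcer2a*, *Cr2*, *Bank1*, *Faim3*, *Tnfrsf13c* and *Cxcr5* together. Under vehicle 20 of 23 cells passed in sham (87.0%), 147 of 190 at 7 dpi (77.4%) and 201 of 329 at 28 dpi (61.1%). Under PLX5622 16 of 18 (88.9%), 22 of 22 (100%) and 61 of 71 (85.9%) passed. Depth moved with this share: cells that passed no stage had a median of 729 UMIs at 28 dpi vehicle, against 1300 for the mature ones. With every cell thinned to 1000 UMIs, which left out 44 and 169 cells, the share was 39.0% at 7 dpi and 38.8% at 28 dpi vehicle, so no order between these libraries is read from it.

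Genes of the precursor stage were found in the vehicle libraries alone. The list of *Vpreb1* and *Igll1* (the surrogate light chain), *Rag1* and *Rag2* (the recombinase) and *Dntt* (an enzyme that adds bases at the joints) had 5 UMIs in sham, 6 at 7 dpi and 37 at 28 dpi under vehicle, and none in the 3 PLX5622 libraries. The B lineage cells of these vehicle libraries held 73262, 661686 and 588352 UMIs in all. Scaled to those totals the list was lowest at 7 dpi, and sham and 28 dpi were close. *Rag1* gave 22 of the 37 UMIs at 28 dpi vehicle, in 18 of 329 cells, and all 5 in sham. Cells with 2 or more UMIs of the list and fewer than 2 of the mature ones numbered 1, 1 and 6 under vehicle. They were 4.35% (0.110 to 21.9), 0.526% (0.0133 to 2.90) and 1.82% (0.672 to 3.93) of the cells. At 28 dpi vehicle 1 further cell passed both stages. A count of 0 among the 71 cells of 28 dpi PLX5622 allows a share of cells passing it of up to 5.06% (exact interval), so the 1.82% at 28 dpi vehicle would not have been told from 0 at this depth. The 6 precursor cells at 28 dpi vehicle held 4086 UMIs in all; *Vpreb3*, a protein of the same family as the surrogate light chain, was the gene highest in them over the mature cells, with 27 of those UMIs and a log2 ratio of 3.87.

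Plasma cell transcripts stood out in 3 cells. At 28 dpi vehicle, 2 cells held 586 and 328 *Igj* UMIs, 24.2% and 15.5% of their RNA, with 9 and 8 of *Mzb1* (an endoplasmic reticulum factor for antibody assembly), 4 and 6 of *Txndc5* and none of *Ms4a1*; the doublet caller marked both. At 28 dpi PLX5622, 1 cell of 5839 UMIs held no *Igj* but 33 UMIs of *Mzb1*, 26 of *Xbp1* (a transcription factor of secretory cells), 9 of *Txndc5* and 9 of *Tnfrsf17* (the receptor BCMA of plasma cells), none of *Ms4a1*, and 331 of *Crip1*. It was found by its sum over the plasma cell list after the values were seen; the next cell in that order held 14 UMIs of the list. *Prdm1*, the regulator of the plasma cell fate, had at most 5 UMIs in a library, and *Sdc1* at most 2.

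Genes of germinal centre and dividing cells had few UMIs. *Bcl6*, the master regulator of germinal centres, had 1 to 15 UMIs per library. *Mki67*, a gene of dividing cells, had 2 UMIs in all, both at 28 dpi vehicle, and *Top2a* 7. *Zbtb32*, a transcription factor of memory and innate-like B cells, had 34 UMIs in 25 myeloid-poor cells at 7 dpi vehicle, against 2 UMIs in sham and 7 at 28 dpi. *Cd5*, a marker of B1a cells, had at most 2 UMIs in any library of myeloid-poor cells, and *Tbx21*, a gene of age-associated B cells, at most 3 in any library of all cells.

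*Vpreb3* was among the genes that differed most between the injury times. *Vpreb3* is transcribed from late precursors to immature and some mature B cells, where its protein binds newly made antibody light chains. In myeloid-poor cells its level in CPM (UMIs of the gene scaled to a common library total) was 1328 (1068 to 1633), 188 (137 to 251) and 1533 (1380 to 1698) in the sham, 7 dpi and 28 dpi libraries of vehicle mice. Under PLX5622 it was 684 (497 to 918), 240 (146 to 370) and 1641 (1421 to 1886). In both diets the 7 dpi library was the lowest and its interval lay apart from those of sham and 28 dpi. These intervals count UMIs and not cells. By cell, *Vpreb3* was found under PLX5622 in 44.4% (21.5 to 69.2) of sham and 35.0% (15.4 to 59.2) of 7 dpi cells. Those intervals overlap, so under PLX5622 sham and 7 dpi stand apart in summed UMIs only. The ratio of 28 over 7 dpi was 3.03 on the log2 scale (2.58 to 3.51) under vehicle and 2.78 (2.11 to 3.52) under PLX5622. It was 3.19 and 3.33 with all cells. The T cell cluster held 1 *Vpreb3* UMI at 7 dpi vehicle, 1 at 28 dpi vehicle and none elsewhere.

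*S100a6*, which encodes a small calcium-binding protein found in activated and memory lymphocytes, ran the other way. Its level in myeloid-poor cells was 413 CPM in sham, 6687 at 7 dpi and 1730 at 28 dpi under vehicle, and 2051, 4687 and 132 under PLX5622. The sham values rest on single cells, which held 27 of 28 UMIs under vehicle and 131 of 132 under PLX5622. The ratio of 28 over 7 dpi was -1.95 (-2.11 to -1.79) under vehicle and -5.15 (-5.97 to -4.43) under PLX5622. At 28 dpi PLX5622 the 16 UMIs of *S100a6* lay in 4 of 70 cells, while at 7 dpi vehicle the 1602 UMIs lay in 76 of 134. At 7 dpi PLX5622 all 391 UMIs lay in 8 of 20 cells. These included the deepest myeloid-poor cells of that library, with 5807 to 11079 UMIs each, so the PLX5622 ratio rests on few cells. T cells also express *S100a6*, at 314 to 1359 CPM in the T cell cluster.

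*Vpreb3* and *Chchd10*, which encodes a mitochondrial protein, lie side by side on chromosome 10 and moved together. By the GENCODE vM21 annotation of build GRCm38, *Chchd10* spans chr10:75933130-75937747 and *Vpreb3* chr10:75943057-75949657, both on the plus strand and 5309 bases apart. *S100a6* (chr3:90612882-90624181) lies 6836 bases from *S100a4* (chr3:90603771-90606045), a gene of the same family. The 250 bases before the start of transcription are shown because these 3 genes are among those that differed most between 7 and 28 dpi in both diets. They are from RefSeq on GRCm38.p6, whose start of *Vpreb3* lies inside the GENCODE span of that gene, plus strand, at chr10:75948050-75948299, chr10:75932880-75933129 and chr3:90612644-90612893, and capitals mark the octamer ATTTGCAT or its reverse complement ATGCAAAT, the site of the OCT factors in B cell promoters.
Vpreb3: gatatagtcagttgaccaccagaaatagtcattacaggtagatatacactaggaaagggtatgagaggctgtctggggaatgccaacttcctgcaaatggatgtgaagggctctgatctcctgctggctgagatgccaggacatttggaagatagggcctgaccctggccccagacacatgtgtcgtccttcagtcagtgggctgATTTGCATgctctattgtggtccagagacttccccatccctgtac
Chchd10: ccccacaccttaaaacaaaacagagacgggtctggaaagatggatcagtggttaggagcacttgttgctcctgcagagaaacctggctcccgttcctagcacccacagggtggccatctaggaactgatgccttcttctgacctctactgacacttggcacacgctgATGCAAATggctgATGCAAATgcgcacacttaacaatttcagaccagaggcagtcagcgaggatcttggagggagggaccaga
S100a6: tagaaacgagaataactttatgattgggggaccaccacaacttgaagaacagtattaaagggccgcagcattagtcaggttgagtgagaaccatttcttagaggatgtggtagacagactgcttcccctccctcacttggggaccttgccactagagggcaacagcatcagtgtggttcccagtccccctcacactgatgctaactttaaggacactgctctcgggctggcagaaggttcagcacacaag
The octamer stands 45 to 38 bases before the start of *Vpreb3* and at 83 to 76 and 70 to 63 bases before that of *Chchd10*. It was found in 1.60% of 32851 promoter windows searched on both strands. It was not found in the windows of *S100a6*, *Bach2*, *Spib*, *Tnfrsf13c* and *Cd79a*. A match is a run of letters and was not tested as a site.

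*Chchd10* levels in myeloid-poor cells were 369, 121 and 578 CPM under vehicle and 451, 192 and 726 CPM under PLX5622 (sham, 7 dpi, 28 dpi). As for *Vpreb3*, 7 dpi was the lowest library of each diet. At 28 dpi vehicle *Chchd10* was detected in 54.4% of the cells with *Vpreb3* and in 22.0% of those without, and at 28 dpi PLX5622 in 58.7% and 25.0%. *S100a4* was likewise detected in 47.4% of cells with *S100a6* and 3.45% of those without at 7 dpi vehicle. Cells with more UMIs detect more of any gene, and these shares are a description.

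Of 440 genes that could be compared between 28 and 7 dpi in both diets in myeloid-poor cells, 15 differed by 2-fold or more under vehicle and 48 under PLX5622. A gene was compared if it had at least 50 UMIs in the libraries together and 5 in each. The 7 dpi PLX5622 library holds 20 myeloid-poor cells, and a few deep ones hold much of its RNA. Both diets had 9 such genes in common, all with the same sign, and the 9 are named for that reason. A gene could reach the minimum of UMIs through its level at 1 time, as *Bach2* did under PLX5622 (8 UMIs at 7 dpi and 43 at 28 dpi). The shared sign is therefore a description. Higher at 28 dpi were *Vpreb3*, *Chchd10*, *Bach2* (a repressor that holds back plasma cell fate; 2.00 and 1.89 on the log2 scale), *Btg1* (an antiproliferative factor; 1.37 and 1.43), *Tnfrsf13c* (the BAFF receptor; 1.59 and 1.01) and *Spib* (an ETS factor of B cell receptor signalling; 1.20 and 1.05). Lower at 28 dpi were *S100a6*, *Tagln2* (an actin-binding protein; -1.02 and -2.23) and *Gimap4* (a lymphocyte GTPase; -1.18 and -1.15). No gene passed 2-fold in opposite directions.

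**Figure D3:**
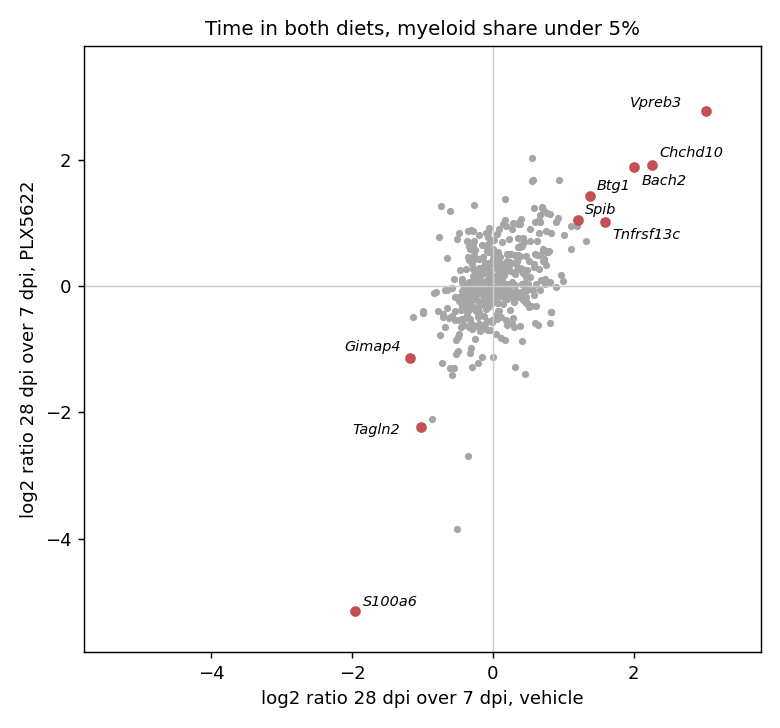
Log2 ratio of 28 over 7 dpi for 440 genes in myeloid-poor B lineage cells, under vehicle (horizontal axis) and under PLX5622 (vertical axis), 1 point per gene and red for the 9 genes at 2-fold or more in both. *Vpreb3* stands at 3.03 and 2.78 and *S100a6* at -1.95 and -5.15.

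Over all genes, 159 of 2958 (5.38%) were at 2-fold or more between 28 and 7 dpi vehicle with all cells, 113 higher at 28 dpi (3.82%) and 46 lower (1.56%), and 71.1% of the calls were upward against 51.2% with edgeR's TMM scaling. In myeloid-poor cells it was 82 of 1180 (6.95%), 64 higher (5.42%) and 18 lower (1.53%). Under PLX5622 it was 83 of 541 (15.3%) with all cells, 35 higher (6.47%) and 48 lower (8.87%), with 42.2% upward against 27.8% by TMM. In myeloid-poor cells under PLX5622 it was 48 of 441 (10.9%), 29 higher (6.58%) and 19 lower (4.31%). The 5 genes highest at 28 dpi vehicle in all cells were *Vpreb3*, *Akap12*, *Atp1b1*, *Coq7* and *Itgax*, and the 5 lowest were *Wfdc17*, *Tnfaip2*, *Pltp*, *Alox5ap* and *Atp6v0d2*. *Itgax* had 64 UMIs there in all cells but 4 in the myeloid-poor ones, and *Wfdc17* had 599 UMIs in all cells and 47 in the myeloid-poor ones at 7 dpi. In myeloid-poor cells the highest were *Sox4*, *Vpreb3*, *Akap12*, *Rgs2* and *Atp1b1*, and the lowest *Wfdc17*, *Zcwpw1*, *S100a6*, *Anxa2* and *Hba-a2*.

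Some early B cell genes outside the precursor list were higher at 28 dpi than at 7 dpi under vehicle. Of 15 on the list, 3 had enough UMIs in myeloid-poor vehicle cells to be compared. All 3 were 2-fold or more higher at 28 than at 7 dpi, beside 5.42% of all genes compared. They were *Vpreb3*, *Akap12* (a scaffold protein of progenitors, 2.94, interval 1.71 to 4.46) and *Sox4* (a transcription factor needed in pro-B cells, 3.72, 2.62 to 5.08). *Akap12* (6 and 46 UMIs at 7 and 28 dpi) and *Sox4* (7 and 92) reached the minimum of UMIs only through their 28 dpi level. The count of 3 was thus partly set by that minimum and does not speak for the list. In the mature-stage cells alone, myeloid-rich ones included, the *Sox4* ratio was -0.16 (-0.97 to 0.63). *Sox4* had 25, 7 and 92 UMIs under vehicle and 7, 0 and 17 under PLX5622. The myeloid-poor cells of the vehicle libraries held 67757, 239561 and 238792 UMIs in all. Scaled to these totals *Sox4* was lowest at 7 dpi, and sham and 28 dpi were close. *Sox4* was lower at 28 dpi PLX5622 than at 28 dpi vehicle (140 and 385 CPM, log2 ratio -1.46, -2.30 to -0.70), which *Vpreb3* was not (0.10, -0.16 to 0.35). *Il7r*, the receptor of the precursor growth factor IL-7, and *Myb*, a transcription factor of progenitors, had too few UMIs in those libraries to be compared (13 and 28 for *Il7r*, 5 and 25 for *Myb*, at 7 and 28 dpi).

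Of 12 transcription factors of the lineage that could be compared between 28 and 7 dpi vehicle in myeloid-poor cells, *Bach2*, *Spib* and *Tcf3* (E2A, 1.39, 0.58 to 2.26) were 2-fold or more higher and none was lower, beside 5.42% higher and 1.53% lower over all genes compared. A factor low at 7 dpi could reach the minimum of UMIs through its 28 dpi level, so this count does not speak for the list. *Ebf1*, which founds the B cell programme, was at 167 CPM at 7 dpi and 268 at 28 dpi, with a ratio of 0.68 (0.09 to 1.29). *Pax5* had at most 4 UMIs in any library with all cells. Among 13 receptor signalling genes *Cd72*, an inhibitory co-receptor, was 2-fold or more higher (2.00, 1.20 to 2.89), a share near that of all genes. The levels of *Cd79a* were 1983 CPM at 7 dpi and 2747 at 28 dpi, a ratio of 0.47 (0.30 to 0.64), so the antigen receptor chain itself stayed under 2-fold.

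**Figure D4:**
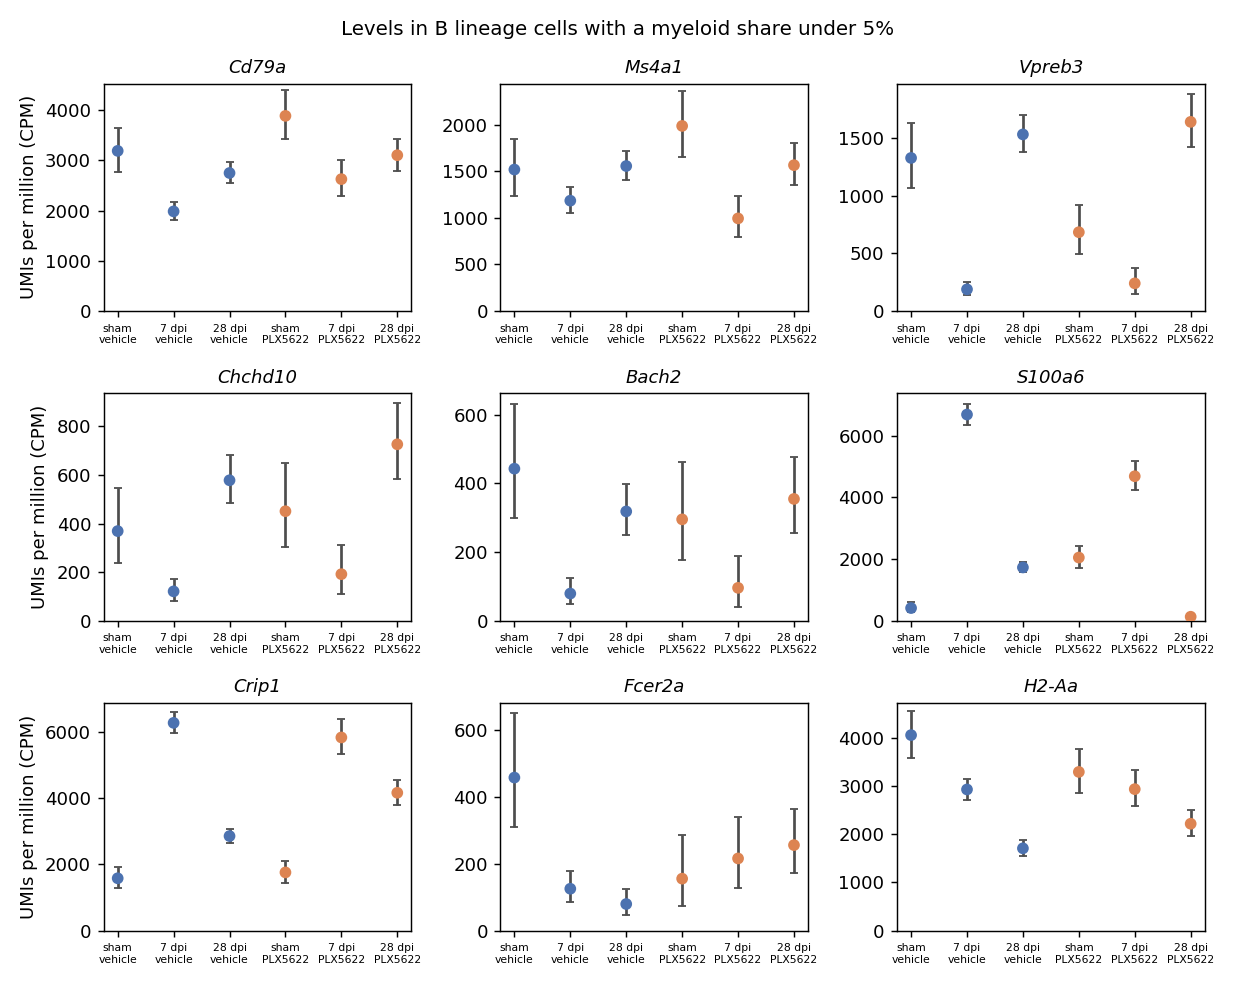
Level in myeloid-poor B lineage cells, in CPM, of 9 genes by library, with vehicle in blue, PLX5622 in orange and bars for exact 95% Poisson intervals. *Vpreb3*, *Chchd10* and *Bach2* have their lowest level at 7 dpi in each diet, *S100a6* and *Crip1* their highest, and *H2-Aa* its lowest at 28 dpi.

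At the level of single cells, *Vpreb3* and high *S100a6* were seldom found together. Of the myeloid-poor cells, 13 of 22 in sham (59.1%), 23 of 134 at 7 dpi (17.2%) and 125 of 234 at 28 dpi (53.4%) held a *Vpreb3* UMI under vehicle, and 8 of 18 (44.4%), 7 of 20 (35.0%) and 46 of 70 (65.7%) under PLX5622. Cells with 5 or more *S100a6* UMIs were 1 (4.55%), 62 (46.3%) and 25 (10.7%) under vehicle and 1 (5.56%), 8 (40%) and 2 (2.86%) under PLX5622. Only 2 cells at 7 dpi vehicle and 1 at 28 dpi vehicle met both.

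With every cell thinned to 500 UMIs, *Vpreb3* was found in 31.8%, 11.9% and 46.6% of cells under vehicle and in 22.2%, 20.0% and 45.7% under PLX5622. *S100a6* at 5 or more UMIs was then found in 0%, 24.6% and 2.56% under vehicle and 0%, 20.0% and 0% under PLX5622. The order of 7 and 28 dpi was thus the same at equal depth in both diets. The intervals at 28 and 7 dpi PLX5622 overlap for *Vpreb3* (33.7 to 58.1 and 5.73 to 43.7), where the 7 dpi library holds 20 cells. In the T cell cluster *Vpreb3* was then found in at most 0.368% of cells of a library and *S100a6* at 5 or more UMIs in at most 1.52%. Before thinning, 34.8%, 14.0% and 11.8% of its myeloid-poor cells under vehicle held 5 or more *S100a6* UMIs. Under PLX5622 these were 9.52%, 30.4% and 24.8%. In both diets they were above the B lineage shares before thinning in sham and at 28 dpi, and below them at 7 dpi.

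**Figure D5:**
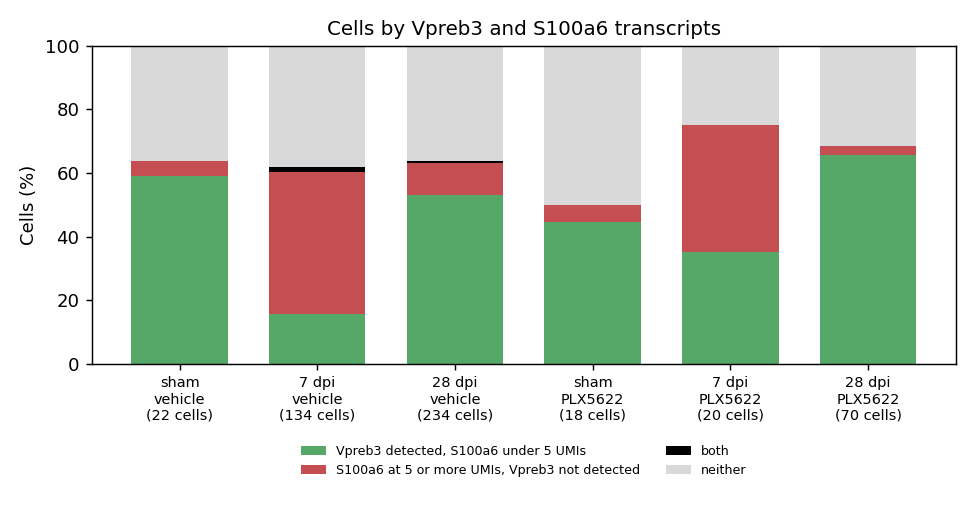
Percent of myeloid-poor B lineage cells in each library (number of cells under each bar) with *Vpreb3* detected, with 5 or more *S100a6* UMIs, with both or with neither. At 7 dpi 46.3% of vehicle and 40% of PLX5622 cells have 5 or more *S100a6* UMIs, against 10.7% and 2.86% at 28 dpi.

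Other genes followed this split. The groups were drawn after the values were seen, so their genes are described and not tested. At 28 dpi vehicle the 124 *Vpreb3* cells (median 694 UMIs) had *Chchd10* at 1100 CPM, *Sox4* at 830, *Bach2* at 529, *Cd72* at 477, *Il7r* at 228 and *Myb* at 239 CPM. In the 24 *S100a6* cells (median 1953 UMIs) *Chchd10*, *Sox4*, *Cd72*, *Il7r* and *Myb* had no UMI and *Bach2* had 2. These cells had *S100a4* at 989 CPM (a motility-associated protein), *Crip1* at 7762, *Tagln2* at 1290, *Ly6a* (Sca-1) at 1677, *Ahnak* at 968 and *Vim* (vimentin) at 2666, against 10.4, 789, 135, 104, 62.3 and 405 CPM in the *Vpreb3* cells. At 7 dpi vehicle, with 21 and 60 cells, *S100a4* (0 and 609 CPM), *Crip1* (1657 and 9194 CPM) and *Tagln2* (331 and 1382 CPM) were split in the same direction.

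Both groups carried the antigen receptor. *Cd79a* was at 3601 CPM in the *Vpreb3* cells and 1849 in the *S100a6* cells at 28 dpi vehicle, and *Ms4a1* at 2044 and 1226 CPM. The myeloid list took 1.26% and 0.899% of their UMIs. *H2-Aa* was lower in the *Vpreb3* cells at 28 dpi (851 and 2602 CPM, log2 ratio -1.61, -2.03 to -1.20) but not at 7 dpi (2840 and 2900 CPM, -0.03, -0.45 to 0.36).

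Several antigen presentation genes were lower at 28 dpi than in sham under vehicle. *H2-Aa*, a chain of MHC class II, was at 4059 CPM in sham, 2930 at 7 dpi and 1709 at 28 dpi in myeloid-poor vehicle cells, and at 3294, 2937 and 2219 CPM under PLX5622. Over the list, 4 of 6 genes compared were 2-fold or more lower at 28 dpi than in sham vehicle, beside 5.48% of all genes (*H2-Aa* -1.25, *H2-Ab1* -1.33, *H2-Eb1* -1.13 and *H2-Ob* -1.28), with a list median of -1.19 beside -0.02 for all genes compared. *Cd74*, the invariant chain, was at 8590, 7635 and 5540 CPM under vehicle and 15383, 11759 and 10352 CPM under PLX5622. At 28 dpi, PLX5622 was higher than vehicle by a list median of 0.71, beside -0.04 for all genes compared. No gene of 6 was at 2-fold in myeloid-poor cells, where 2.16% of all genes were higher. With all cells 5 of 7 were, beside 7.41% of all genes.

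Some genes that place B cells in lymphoid tissue were lower at 28 dpi than in sham under vehicle. *Ccr7*, the receptor that draws lymphocytes into the T cell zone, was at 487, 125 and 71.2 CPM under vehicle and 311, 132 and 157 CPM under PLX5622. *Fcer2a* (CD23), a surface protein of follicular B cells, was at 458, 125 and 79.6 CPM under vehicle. Under PLX5622 it was at 155, 216 and 256 CPM, with overlapping intervals. Of 13 homing genes on the list, 5 could be compared between 28 dpi and sham vehicle in these cells. Of the 5, 4 were 2-fold or more lower, beside 5.48% of all genes: *Ccr7* (-2.77), *Cd44* (-1.52), *Gpr183* (-1.26) and *Cxcr4* (-1.14). *Ccr7*, with 33 UMIs in sham and 17 at 28 dpi, reached the minimum of UMIs only through its sham level. Of the 26 *Cd44* UMIs in sham vehicle, 24 lay in 1 cell. The count of 4 in 5 therefore does not speak for the list.

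Survival signals were measured through their receptors. *Tnfrsf13c*, the receptor by which BAFF keeps B cells alive, was at 398, 83.5 and 251 CPM under vehicle and 513, 156 and 313 CPM under PLX5622, lowest at 7 dpi in each diet. *Tnfrsf13b* (TACI) was at 133, 54.3 and 62.8 CPM under vehicle and 77.7, 59.9 and 107 CPM under PLX5622. Among the cytokines on the list *Ltb*, a lymphotoxin chain that organises lymphoid tissue, had enough UMIs to compare; it was at 856, 488 and 394 CPM under vehicle and 855, 420 and 775 CPM under PLX5622.

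Set against sham, the B lineage cells of the injured vehicle libraries held more myeloid RNA. With all cells, 412 of 1497 genes (27.5%) were at 2-fold or more between 7 dpi and sham vehicle, 92 higher (6.15%) and 320 lower (21.4%), and 294 of 1545 (19%) between 28 dpi and sham, 84 higher (5.44%) and 210 lower (13.6%). TMM scaling moved the median log2 ratio of all genes from -0.33 to 0.04 at 7 dpi, and the share of upward calls from 22.3% to 51.2% at 7 dpi and from 28.6% to 49.6% at 28 dpi. *Ctsb*, *Ctsd*, *Apoe*, *Spp1* and *Cd63*, genes of macrophages and lysosomes, were the 5 highest at both times. The lowest were *Hbb-bs*, *Vpreb3*, *Pyhin1*, *Alas2* and *Hba-a2* at 7 dpi and *Hbb-bs*, *Alas2*, *Hba-a2*, *Fcer2a* and *Ccr7* at 28 dpi. The 4 genes of the hemoglobin list that mark red cells had 225 UMIs in sham vehicle, of which 99.1% lay in 3 cells.

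In the myeloid-poor cells 143 of 681 genes (21%) were at 2-fold or more between 7 dpi and sham vehicle, 51 higher (7.49%) and 92 lower (13.5%), and 84 of 785 (10.7%) between 28 dpi and sham, 41 higher (5.22%) and 43 lower (5.48%). Of the genes past 2-fold with all cells, 28.4% at 7 dpi and 24.8% at 28 dpi were past it in the same direction in the myeloid-poor cells. Genes with too few UMIs to be compared in the myeloid-poor cells count here as not past it. Of the genes past 2-fold in the myeloid-poor cells, 81.8% and 86.9% were past it in the same direction with all cells. Of the lineage markers 5 of 5 compared, *Cd79a* with -1.60 among them, were 2-fold or more lower at 7 dpi than in sham with all cells, beside 21.4% of all genes. In the myeloid-poor cells 0 of 5 were (*Cd79a* -0.69, -0.92 to -0.45), beside 13.5% of all genes. *S100a6* was the highest gene there at 7 dpi (4.02), and *Pyhin1*, *Hbb-bs*, *Vpreb3*, *Alas2* and *Btg2* were the lowest. Even so, 5 of 9 myeloid genes at 7 dpi and 8 of 9 at 28 dpi were 2-fold or more higher than in sham in the myeloid-poor cells. The part of this RNA in the other differences from sham was not tested.

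The diet comparison at 28 dpi showed the same layer of RNA. With all cells, 264 of 1727 genes (15.3%) were at 2-fold or more between PLX5622 and vehicle, 128 higher (7.41%) and 136 lower (7.87%), with 48.5% upward against 38.1% by TMM. *Spp1* (-5.92), *Trem2*, *Apoe*, *C1qa* and *Fcer1g*, all myeloid genes, were the 5 lowest under PLX5622, and *Gm12191*, *Strbp*, *Fcer2a*, *Hdac7* and *Ms4a4c* the 5 highest. In myeloid-poor cells it was 61 of 927 (6.58%), 20 higher (2.16%) and 41 lower (4.42%), and 8 of 9 myeloid genes were still lower.

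Among the genes of B cells at 28 dpi, *Fcer2a* was higher under PLX5622 in the myeloid-poor cells (256 and 79.6 CPM, log2 ratio 1.68, 0.81 to 2.59). *S100a6* was lower (-3.71, -4.53 to -3.0), and so was *Ahnak* (-2.47, -3.64 to -1.48). *Fcer2a* (31 UMIs under PLX5622 and 19 under vehicle) and *Ahnak* (9 and 98) reached the minimum of UMIs only through their higher library. *Vpreb3* (0.10), *Cd79a* (0.17, -0.01 to 0.36) and *Ms4a1* (0.01, -0.25 to 0.26) were under 2-fold by their whole intervals. *Xbp1* (1.06) and *Crip1* (0.54) were higher through the 1 cell with 33 UMIs of *Mzb1* named above: without that cell their ratios were -0.72 and -0.93. Of 12 transcription factors and 11 receptor signalling genes compared, none was at 2-fold.

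At 7 dpi, 236 of 1711 genes (13.8%) were at 2-fold or more between PLX5622 and vehicle with all cells, 108 higher (6.31%) and 128 lower (7.48%), and 48 of 688 (6.98%) in the myeloid-poor cells, 22 higher (3.2%) and 26 lower (3.78%). The highest were *Hba-a2*, *Hbb-bs*, *Alas2*, *Bpgm* and *Mkrn1*, red cell genes in the main, and 3 of the 22 PLX5622 cells held 98.6% of the 588 hemoglobin list UMIs. The lowest were *Fabp5*, *Wfdc17*, *Lyz2*, *Lgals3* and *Mt1*. *Itgb7*, an integrin chain for gut homing, was the 1 homing gene of 5 at 2-fold in the myeloid-poor cells, lower under PLX5622 (-1.04, with an interval from -2.24 to just under 0). *Vpreb3* (0.35, -0.49 to 1.14) and *S100a6* (-0.51, -0.68 to -0.35) were under 2-fold there.

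Between the sham libraries of 18 and 23 cells, 33 of 321 genes (10.3%) were at 2-fold or more, 10 higher under PLX5622 (3.12%) and 23 lower (7.17%), with 30.3% upward against 51.6% by TMM, and 20 of 306 (6.54%) in the myeloid-poor cells, 8 higher (2.61%) and 12 lower (3.92%). *Apoe* (-2.88), *Kcnq1ot1*, *Junb* and *Zfp36l2* were among the 5 lowest and *S100a6* (2.42, from the single cell above), *Rps27*, *Hba-a2*, *Pou2f2* and *Lsp1* the highest. *Vpreb3* was at 1328 CPM under vehicle and 684 under PLX5622 in the myeloid-poor cells (-0.96, -1.51 to -0.42). Among the 306 genes compared in these cells, none of the class II, receptor signalling or transcription factor lists was at 2-fold. Members of those lists under the minimum of UMIs were not compared.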

How the data were processed

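Single-cell RNA-seq was run by the study on 6 pools of mouse spinal cord, and the authors deposited UMI counts of 16003 genes in 21016 cells with their clusters. Per the labels and the study's methods the reads were processed with Cell Ranger and clustered with Seurat, against GRCm38. Cells of cluster 7 were taken as B lineage cells and cluster 5 as the T cell cluster. The members and gene lists were chosen with earlier results of these data known.

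For each library the UMIs of its B lineage cells were added up and scaled to their total (CPM), with exact 95% Poisson intervals. Ratios have exact conditional binomial intervals and shares have Clopper-Pearson intervals, which cover counting error only. With 1 library per condition no test was run, and a gene was called at 2-fold or more if it had at least 50 UMIs together and 5 in each library. Where a gene had no UMI on a side of a ratio, a floor of 3 counts took its place. Named genes were the members of the lists and the 5 highest and 5 lowest of each comparison. A few of these genes are not reported here. The myeloid-poor cells, the *Vpreb3* and *S100a6* groups and the 9 genes shared by both diets were chosen after the values were seen. The steps were tested on simulated data. Alternatives were TMM (edgeR 4.0.16) and DESeq2 1.42.0 scaling, other minima, each cell weighted alike, thinning to 1000 UMIs, a total without 97 ribosomal and immunoglobulin genes, and doublet removal at a rate of 0.8% per 1000 barcodes. Doublets stayed in the main values. The work ran in R 4.3.3 and Python 3.11.15 (scanpy 1.11.5 for doublets, scipy 1.17.1 for intervals).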

Additional observations from a re-analysis of the deposited data

How the results depend on the processing

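No paired analysis was possible because each condition has 1 library and no result comes from a test, and for the same reason no library could be left out. Of the values for single genes under other settings, 1647 stayed within their interval or on their side of 2-fold, 120 moved, 79 came under 2-fold, 32 came past it and 6 changed sign. The sign changes were *Sox4* at 28 over 7 dpi vehicle with mature cells only (-0.16), *Hba-a2* in sham PLX5622 over vehicle with each cell weighted alike (-0.52) or thinned (-0.45), *Crip1* at 28 dpi PLX5622 over vehicle thinned (-0.30) or with mature cells only (-0.45), and *Apoe* at 28 over 7 dpi PLX5622 in myeloid-poor cells (1.23). Outside the microglia and macrophage clusters the share of B lineage cells moved to 2.46% (sham), 8.40% (7 dpi) and 12.9% (28 dpi) under vehicle. It moved to 10.9% at 28 dpi PLX5622. Of the cells outside those clusters, 860, 1489, 1685 and 606 had under 5% of UMIs from the myeloid list, in the same order. The B lineage shares of these were 2.56%, 9.0%, 13.9% and 11.6%. Leaving out every cell under 500 genes gave 2.12% and 2.19% at 7 and 28 dpi vehicle (1.57% in sham). B lineage cells with fewer than 3 myeloid UMIs were 0.334%, 0.0403% and 0.0102% under vehicle, 1.42% in sham PLX5622 and 2.13% at 28 dpi PLX5622, of all cells. The mature share moved to 86.8% (7 dpi vehicle), 75.4% (28 dpi vehicle) and 100% (sham PLX5622) with a minimum of 1 UMI, to 65.8%, 47.4% and 74.6% (28 dpi PLX5622) with 3, and when thinned to 39.0% (7 dpi vehicle), 38.8% (28 dpi vehicle), 100% (sham PLX5622) and 72.7% (7 dpi PLX5622). Counts of genes at 2-fold or more are given in the order 28 over 7 dpi vehicle, 7 dpi over sham, 28 dpi over sham, PLX5622 over vehicle in sham, at 7 dpi and at 28 dpi, and 28 over 7 dpi PLX5622. The number of genes compared changed with the setting and is given after each set. They were 159, 412, 294, 33, 236, 264 and 83 as reported, of 2958, 1497, 1545, 321, 1711, 1727 and 541 genes compared. When thinned they were 36, 66, 62, 3, 35, 97 and 15 of 693, 298, 342, 112, 301, 503 and 195. With a minimum of 20 UMIs they were 589, 1534, 1209, 158, 1017, 1123 and 346 of 5784, 4065, 4087, 958, 4173, 4239 and 1568. With 100 they were 55, 218, 156, 15, 138, 143 and 31 of 1514, 754, 754, 163, 833, 813 and 248. In myeloid-poor cells they were 82, 143, 84, 20, 48, 61 and 48 of 1180, 681, 785, 306, 688, 927 and 441. Each cell weighted alike gave 316 of 2958 for the first and 174 of 1727 for PLX5622 over vehicle at 28 dpi. Doublet removal gave 182 of 1107 for 28 dpi over sham and 145 of 1261 for PLX5622 over vehicle at 28 dpi. Cells with fewer than 3 myeloid UMIs gave 10 of 97 for the sham libraries, where alone that setting could be run. The cause of these differences was not tested. The sham and 7 dpi PLX5622 libraries hold 18 to 23 cells each, and the 28 dpi vehicle cells are the shallowest, with a median of 932 UMIs.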

Other observations

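Signals that guide and keep B cells were measured in the other cells of each library. *Cxcl13*, the chemokine that draws B cells into follicles, was at 5.62, 16.0 and 24.2 CPM in the other cells of sham, 7 dpi and 28 dpi vehicle, and had no UMI under PLX5622, which allows up to 1.45, 0.871 and 1.03 CPM. *Tnfsf13b*, which encodes BAFF, was at 28.5, 7.02 and 24.1 CPM under vehicle and 10.6, 6.85 and 11.8 CPM under PLX5622, lowest at 7 dpi in each diet. *Cxcl12*, the chemokine that holds B cell precursors in marrow, was at 128, 42.4 and 52.3 CPM under vehicle and 412, 299 and 122 CPM under PLX5622. These levels depend on which cells a library holds, and the cells that made them were not examined.

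A few cells of the cluster held transcripts of another type. At least 2 of 5 plasmacytoid dendritic cell genes, *Siglech* among them, were detected in 10 cells at 7 dpi vehicle, 7 at 28 dpi vehicle and 1 at 28 dpi PLX5622. Of these, 6 and 3 of the vehicle cells held at most 1 UMI of *Cd79a*, *Cd79b* and *Ms4a1*. T and NK cell genes had 0, 7 and 45 UMIs in the B lineage cells under vehicle and 0, 0 and 1 under PLX5622.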
